A study of Mus musculus with 8 samples.

Results

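The genes described here encode reported chromatin partners of Bcl11b and proteins related to them, and are called partner genes below. Whether their proteins bind Bcl11b in these cells was not tested. They are 41 genes for histone deacetylases, subunits of the NuRD and BAF chromatin remodeling complexes, heterochromatin proteins, histone acetyltransferases and the DNA-binding proteins that associate with Bcl11b. A gene was included when its symbol was listed for at least 1 probe of the array, which held for 33 of the 41 genes and gave 54 of 25697 probes (18120 symbols in all). STHdh cells, a conditionally immortalized line of wild-type progenitors from embryonic mouse striatum, were transfected with a plasmid carrying the mouse Bcl11b cDNA (4 arrays, Bcl11b) or with the empty plasmid pcDNA3.1 (4 arrays, mock), and RNA was taken 2 days later. The labels call the mock group wild-type, and both groups are the same line grown alike. The transfection is transient, so each RNA sample mixes cells that took up the plasmid with cells that did not. In such bulk RNA, a change in the number of cells that express a gene and a change in the RNA per cell cannot be told apart.

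Bcl11b, also called CTIP2, is a zinc finger transcription factor that is best known as a repressor in T cells and in medium spiny neurons of the striatum. It was found as a protein that interacts with the orphan nuclear receptors COUP-TF1 and COUP-TF2 (Nr2f1 and Nr2f2), and it is recruited to GC-rich sites through Sp1. At its targets it brings in the NuRD complex, which joins an ATP-driven nucleosome remodeler with the deacetylases Hdac1 and Hdac2, as well as the deacetylase Sirt1, the histone methyltransferase Suv39h1 and the heterochromatin protein HP1 alpha (Cbx5). Bcl11b is also a subunit of BAF, the mammalian SWI/SNF complex, which moves nucleosomes with either Smarca4 (Brg1) or Smarca2 (Brm) as its motor.

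On these arrays each probe is read from many beads and gives a single signal, and a detection p-value compares that signal with negative control beads. A probe was called detected at a detection p-value under 0.01. Signals are given on the log2 scale after quantile normalization, and the brightest probe stood for a gene that had more than 1. Signals of different probes are not set against each other, since probes differ in how strongly they bind. Before normalization the mock arrays were brighter, at median signals of 31.6 to 53.9, than the Bcl11b arrays at 20.1 to 30.2, and the groups did not overlap in this measure. Array brightness and transfection therefore cannot be told apart in signals that were not normalized. Of 8 striatal neuron markers on the array, including Ppp1r1b, Drd1a, Drd2, Adora2a and Gad1, none was detected. Detected markers were Map2 of 4 neuronal genes, Nes and Sox2 of 4 progenitor genes, none of 5 astrocyte and oligodendrocyte genes, and Col1a1, Col3a1 and Pdgfrb of 5 mesenchymal genes. The summed normalized signal of the mesenchymal markers ran from 2129 to 3910 in the mock group, overlapping the 2510 to 3489 of the Bcl11b group, although Pdgfrb was lower on all 4 Bcl11b arrays (log2 difference -0.49, unadjusted p = 0.0142 from limma) and Col3a1 had a difference of -0.87 (unadjusted p = 0.0806). The progenitor sum overlapped as well, at 1652 to 3057 and 1960 to 2410. Of the progenitor probes, the dimmer Nes probe was higher (ILMN_2904590, 0.43, unadjusted p = 0.0135 from limma) and the dimmer Sox2 probe lower (ILMN_1248711, -0.71, unadjusted p = 0.0376 from limma), while the brighter probes had differences of -0.00071 and 0.20. The part of cell composition in the differences below was not tested. The single Bcl11b probe gave no detected signal in either group, which leaves the transfected gene itself unread.

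Of the 33 partner genes on the array, 29 had a representative probe that was detected, all of them on at least 1 array of each group and 27 of them on all 8 arrays. No probe of Mbd2, Suv39h2, Crebbp or Arid1a was detected. Most partner genes were thus measured in cells in which none of the 8 striatal neuron markers passed the detection limit used here. By PCR, another assay, the study found Ppp1r1b and Rgs9 expressed in this line. It also reports Present calls on its arrays for most genes of its striatal-enriched list. Nr2f1, which encodes COUP-TF1, was the gene that passed an adjusted p-value of 0.10 (limma with Benjamini-Hochberg adjustment over all 25697 probes), and it was lower in Bcl11b-transfected cells. That is 1 of 29 genes, where 0.981% of all probes and 1.92% of all genes with a detected representative probe passed, 0.627% and 1.4% being lower. At an unadjusted p-value under 0.05 the count was 7 of 29 genes (24.1%), against 10.4% of all probes and 19.2% of all detected genes, so the share was near the background. Of the 7 genes, 4 were higher (13.8% of the 29, background 4.76%), a direction that turned for all 4 without normalization between arrays, and 3 were lower (10.3%, background 14.4%). Without that normalization 4.8% of all detected genes had a higher mean, against 44.3% with it. The groups did not overlap for 3 of the 29 genes (10.3%), against 10.8% of all detected genes. Hdac1 and Smarca4 were higher (background 2.63%) and Nr2f1 was lower (background 8.18%). Over the 29 genes the log2 difference between Bcl11b and mock had a median of 0.023 and lay between -0.60 and 1.53, the upper end being Smarcd1 with a detected signal on 1 of 4 mock arrays, while the median over all detected genes was -0.046. The standard error had a median of 0.16 over the 29 genes, and for 20 of them the difference was smaller than 0.3 on the log2 scale. This split depended on the scaling, since 8 genes passed 0.05 with signals scaled to the median of each array, 7 of them higher and 1 lower (24.1% and 3.45%, against 9.42% and 8.81% of all detected genes). Without normalization 12 passed, all 12 lower (41.4%, against 51.9%).

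**Figure D1:**
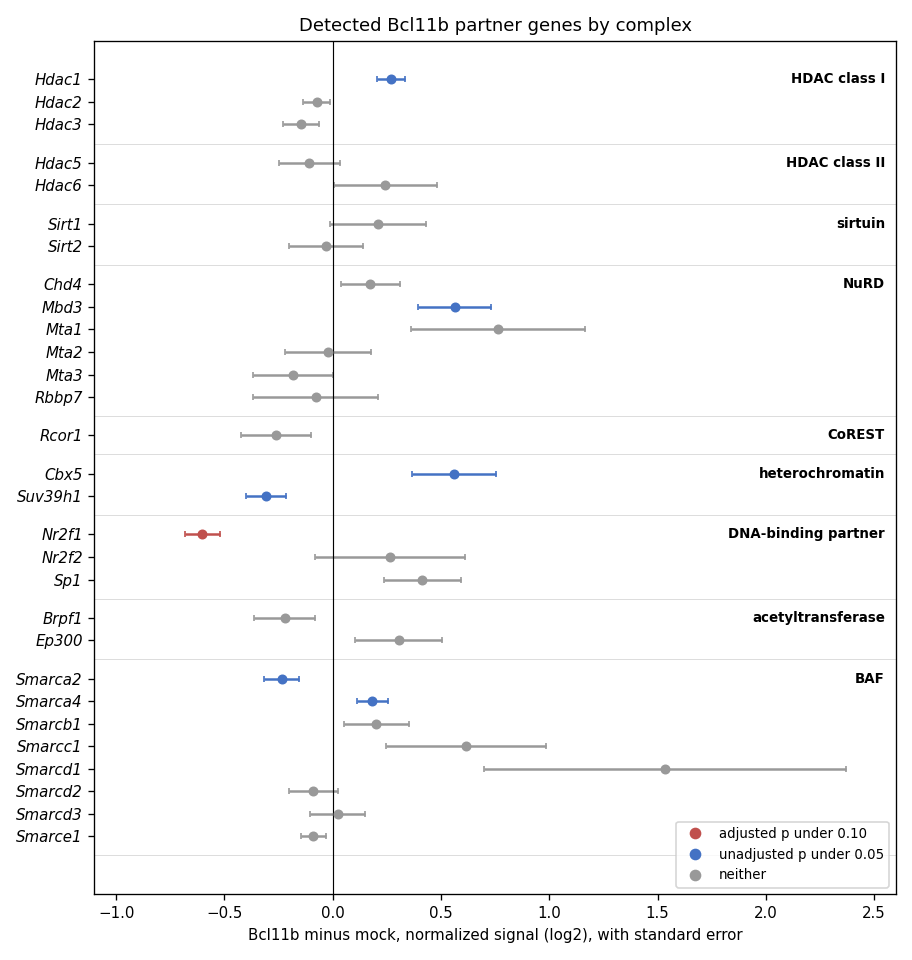
Log2 difference in normalized signal, Bcl11b minus mock, for the representative probe of each of 29 detected partner genes, grouped by complex, with bars of 1 standard error from limma (4 arrays per group). Nr2f1 in red passed an adjusted p-value of 0.10, and 6 more genes in blue passed an unadjusted 0.05. Hdac1, Mbd3, Cbx5 and Smarca4 lie to the right here and had values below 0 in signals that were not normalized between arrays. In those signals 4.8% of all detected genes had a higher mean.

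Among the DNA-binding partners, Nr2f1 passed the threshold, and Nr2f2 and Sp1 did not. COUP-TF1 is an orphan nuclear receptor that patterns the developing forebrain. Its only probe (ILMN_2607529) had log2 signals of 12.57, 12.48, 12.31 and 12.69 on mock replicates 1 to 4 and of 11.91, 11.95, 11.85 and 11.93 on Bcl11b replicates 1 to 4. Every Bcl11b array lay below every mock array, and the Bcl11b arrays were close to each other. The mean fell from 12.51 ± 0.16 (SD, n = 4) to 11.91 ± 0.045 (SD, n = 4), which is 1.52-fold lower (log2 difference -0.60, standard error 0.080, limma adjusted p = 0.0547). The difference kept its sign and an unadjusted p-value under 0.05 with any array left out (log2 difference from -0.67 to -0.55) and under the 10 other settings. The adjusted call was lost without mock replicate 1 (adjusted p = 0.135) and without Bcl11b replicate 1 (0.179), 2 (0.154) or 3 (0.165), and with signals scaled to the median of each array (log2 difference -0.41, adjusted p = 0.156 from limma). It was also lost without normalization (adjusted p = 0.125 from limma), with replicate number as blocking factor (0.183) and with limma-trend (0.155).

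Nr2f1 lies on chromosome 13 of mouse build GRCm38.p6, from 78188971 to 78198873 on the minus strand. The 250 bases upstream of its annotated start, chr13:78198874-78199123 in the RefSeq annotation, are shown because it is the partner gene that passed the adjusted threshold. Read 5′ to 3′ along the minus strand, with capitals for the only match to the GC box GGGCGG, here as its reverse complement:
Nr2f1: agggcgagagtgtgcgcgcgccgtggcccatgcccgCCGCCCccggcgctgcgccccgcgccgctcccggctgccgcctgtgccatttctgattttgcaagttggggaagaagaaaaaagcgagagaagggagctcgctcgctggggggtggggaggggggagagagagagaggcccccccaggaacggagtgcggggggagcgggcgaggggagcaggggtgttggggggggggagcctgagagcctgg
These bases were 72.0% G or C, and the GC box, the element that Sp1 recognizes, began 214 bases before the start. Searched on both strands, a GC box was held by 32.7% of 32851 RefSeq promoter windows of the same length. The hexamer AGGTCA, the core that COUP-TF proteins recognize, was not present in these 250 bases and was held by 14.0% of the windows. A match to these letters is a description of the sequence and not a binding site. Another start listed for Nr2f1 lies inside the gene and was not shown.

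**Figure D2:**
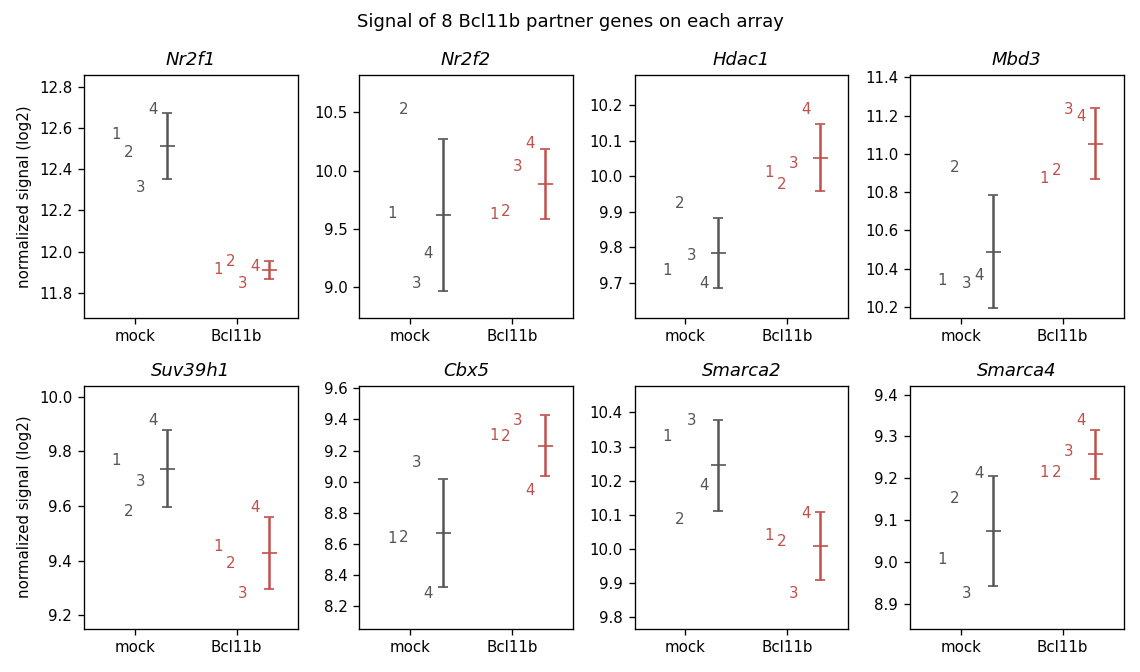
Normalized log2 signal of the representative probe of 8 partner genes, with each array drawn as its replicate number (mock in gray, Bcl11b in red) and the mean with SD beside it; every panel has its own axis. For Nr2f1 the 4 Bcl11b arrays lie from 11.85 to 11.95 and the 4 mock arrays from 12.31 to 12.69, while for Nr2f2 and Mbd3 mock replicate 2 lies within the range of the Bcl11b arrays or above it.

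Nr2f2, which encodes COUP-TF2, was read by 3 probes. Its brightest (ILMN_3163196) had log2 signals of 9.63, 10.52, 9.03 and 9.29 on mock replicates 1 to 4 and of 9.62, 9.65, 10.04 and 10.23 on Bcl11b replicates 1 to 4. Mock replicate 2 was the highest of all 8 arrays and mock replicates 3 and 4 the lowest, so the groups overlapped (log2 difference 0.26, standard error 0.35, adjusted p = 0.922 from limma). A dimmer probe (ILMN_3076625), detected on 3 mock arrays and 1 Bcl11b array, had a mean difference in the opposite direction (-0.31, standard error 0.33), and the remaining probe was not detected. Whether Nr2f1 and Nr2f2 differed in their response was not tested. Sp1, a general activator that binds GC-rich promoters, had signals of 6.77 to 7.47 in the mock group and 7.40 to 7.73 in the Bcl11b group. Its difference of 0.41 (standard error 0.18, unadjusted p = 0.0564 from limma) missed the threshold.

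Of the deacetylases of class I, which are the nuclear enzymes of corepressor complexes, Hdac1 was higher in Bcl11b-transfected cells, although not without normalization (-0.43). Its log2 signals were 9.73, 9.92, 9.78 and 9.70 on mock replicates 1 to 4 and 10.01, 9.98, 10.04 and 10.19 on Bcl11b replicates 1 to 4. All Bcl11b arrays lay above all mock arrays, by a small step, with a mean of 9.78 ± 0.098 (SD, n = 4) against 10.05 ± 0.094 (SD, n = 4). This is 1.21-fold higher (log2 difference 0.27, standard error 0.066, unadjusted p = 0.00563 and adjusted p = 0.215 from limma). Hdac1 stayed under an unadjusted 0.05 with any array left out, but not when dim probes were removed before the fit (unadjusted p = 0.0562 from limma). Its paralog Hdac2, which shares the same complexes, had signals of 12.78 to 12.99 in the mock group and 12.70 to 12.93 in the Bcl11b group (log2 difference -0.075, standard error 0.063), and its sign turned with median-scaled signals (0.22). Hdac3, the enzyme of the NCoR complexes, had a difference of -0.15 (standard error 0.084, unadjusted p = 0.125 from limma).

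Of the class II deacetylases and sirtuins among the partner genes, Hdac5, Hdac6, Sirt1 and Sirt2 were detected and none passed the unadjusted threshold. Hdac5, a class II enzyme that shuttles between cytoplasm and nucleus, had log2 signals of 10.91, 11.35, 10.80 and 11.22 on mock replicates 1 to 4 and of 11.04, 10.82, 10.87 and 11.12 on Bcl11b replicates 1 to 4 at its brightest probe. Its 3 probes had differences of -0.11, 0.014 and -0.0067, within their standard errors. The 2 probes of Hdac6, a cytoplasmic deacetylase of tubulin, had differences of opposite sign, 0.24 (standard error 0.24) at the brighter and -0.44 (standard error 0.30) at the dimmer. For Sirt1, the NAD-dependent deacetylase that Bcl11b recruits, signals were 10.97, 11.40, 10.73 and 11.51 on mock replicates 1 to 4 and 11.32, 11.21, 11.15 and 11.76 on Bcl11b replicates 1 to 4. The Sirt1 groups overlapped over most of their range (log2 difference 0.21, standard error 0.22). Sirt2, a mostly cytoplasmic sirtuin, had a difference of -0.032 (standard error 0.17).

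Of the 6 detected NuRD genes outside the deacetylases, Mbd3 passed the unadjusted threshold, which 19.2% of all detected genes passed, and 5 did not. Mbd3 was higher after normalization and at -0.098 without it. Mbd3 is the methyl-CpG-binding domain protein of 1 form of NuRD, and Mbd2, which defines the other form, was not detected at its only probe. The Mbd3 signals were 10.34, 10.93, 10.33 and 10.37 on mock replicates 1 to 4 and 10.87, 10.91, 11.23 and 11.20 on Bcl11b replicates 1 to 4. Mock replicate 2 was the only mock array within the range of the Bcl11b arrays. The mean rose from 10.49 ± 0.29 (SD, n = 4) to 11.05 ± 0.19 (SD, n = 4), which is 1.48-fold (log2 difference 0.56, standard error 0.17, unadjusted p = 0.0140 and adjusted p = 0.309 from limma). It remained under 0.05 with any array left out (differences from 0.50 to 0.71), but not with replicate number as blocking factor (unadjusted p = 0.0552 from limma).

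The remodeling motor Chd4 had 3 probes with differences of 0.17, 0.27 and 0.69, none past the threshold. At the brightest, the 4 Bcl11b arrays agreed to within an SD of 0.016, whereas the mock arrays spread from 10.27 to 10.96. The Mta proteins scaffold NuRD, and no Mta gene passed at its brightest probe. Mta1 had signals of 7.43, 9.08, 7.50 and 8.06 on mock replicates 1 to 4 and from 8.43 to 9.14 on the Bcl11b arrays, a difference of 0.76 with a standard error of 0.40 (unadjusted p = 0.104 from limma). Mta2 had a difference of -0.022 (standard error 0.20). Both detected Mta3 probes had lower means in Bcl11b-transfected cells, with differences of -0.18 (standard error 0.19) at the brighter and -0.35 (standard error 0.14, unadjusted p = 0.0409 from limma) at the dimmer. The dimmer probe (ILMN_2847038), which is outside the count of 7, had signals of 7.72, 7.35, 7.06 and 7.42 on mock replicates 1 to 4 and of 7.03, 7.04, 6.95 and 7.15 on Bcl11b replicates 1 to 4. Mock replicate 3 lay within the Bcl11b range, and this probe passed 0.05 only with that array left out (unadjusted p up to 0.0941 by limma without any other). The histone chaperone Rbbp7 was read by 4 probes, whose differences lay between -0.17 and 0.10, with overlapping groups and none past the threshold. The difference of -0.17 was at the dimmest probe (ILMN_2896823, standard error 0.085, unadjusted p = 0.0968 from limma). Rcor1, the scaffold of the CoREST complex, which also holds Hdac1 and Hdac2, had signals of 6.94, 6.69, 7.25 and 6.78 on mock replicates 1 to 4 and of 6.64, 6.37, 6.69 and 6.92 on Bcl11b replicates 1 to 4. These groups overlapped (log2 difference -0.26, standard error 0.16).

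The heterochromatin partners Suv39h1 and Cbx5 differed in opposite directions after normalization, and without it Cbx5 was at -0.15. Suv39h1 trimethylates histone H3 at lysine 9, and HP1 alpha binds that mark. The Suv39h1 signals were 9.77, 9.58, 9.69 and 9.91 on mock replicates 1 to 4 and 9.45, 9.39, 9.28 and 9.59 on Bcl11b replicates 1 to 4. Only Bcl11b replicate 4 reached above the lowest mock array. The mean fell from 9.74 ± 0.14 (SD, n = 4) to 9.43 ± 0.13 (SD, n = 4), with a log2 difference of -0.31 (standard error 0.093, unadjusted p = 0.0147 and adjusted p = 0.314 from limma). Suv39h1 stayed under 0.05 with any array left out, and not with median-scaled signals (-0.25, unadjusted p = 0.0808). It also failed when probes had to be detected at 0.05 on 4 arrays (unadjusted p = 0.0515 from limma).

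Cbx5 had signals of 8.64, 8.64, 9.13 and 8.28 on mock replicates 1 to 4 and of 9.30, 9.29, 9.40 and 8.95 on Bcl11b replicates 1 to 4. Mock replicate 3 lay above Bcl11b replicate 4, and no other pair of arrays crossed. The mean rose from 8.67 ± 0.35 (SD, n = 4) to 9.23 ± 0.20 (SD, n = 4), which is 1.48-fold (log2 difference 0.56, standard error 0.19, unadjusted p = 0.0252 and adjusted p = 0.375 from limma). With Bcl11b replicate 1, 2 or 3 or mock replicate 1, 2 or 4 left out, Cbx5 no longer passed 0.05 (unadjusted p from 0.0512 to 0.0645 by limma, differences from 0.44 to 0.71 over all arrays left out). These values come from its brighter probe (ILMN_3055904), and the other Cbx5 probe (ILMN_1225197) was not detected on any array.

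The acetyltransferases act against the deacetylases, and p300 (Ep300) is a coactivator of Bcl11b in T cells. The Ep300 signals were 10.45, 11.39, 10.93 and 11.10 on mock replicates 1 to 4 and 11.20, 11.20, 11.20 and 11.47 on Bcl11b replicates 1 to 4. The groups overlapped because of mock replicate 2 (log2 difference 0.30, standard error 0.20, unadjusted p = 0.177 from limma). Its paralog Crebbp was not detected, so the array does not show whether these cells use both. Brpf1, the scaffold of the MOZ and MORF acetyltransferases, had lower means at both probes, -0.22 (standard error 0.14) and -0.45 (standard error 0.25). Neither passed the threshold (unadjusted p = 0.164 and 0.116 from limma). The study names Brpf1 among its Bcl11b targets, a list that joined expression changes at p under 0.05 with ChIP-seq binding. The 2 results differ in the expression part, and binding was not examined here.

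Of 8 detected BAF genes, 2 passed the unadjusted threshold, which 19.2% of all detected genes passed. The 2 were the alternative motors, Smarca2 lower and Smarca4 higher (-0.51 without normalization). Smarca2 (Brm, ILMN_3154810) had signals of 10.33, 10.09, 10.38 and 10.19 on mock replicates 1 to 4 and of 10.04, 10.02, 9.87 and 10.10 on Bcl11b replicates 1 to 4. Bcl11b replicate 4 lay just above mock replicate 2, and the other Bcl11b arrays lay under the whole mock group. The mean fell from 10.24 ± 0.13 (SD, n = 4) to 10.01 ± 0.10 (SD, n = 4), a log2 difference of -0.24 (standard error 0.081, unadjusted p = 0.0243 and adjusted p = 0.373 from limma). The other Smarca2 probe (ILMN_3075712), with a mean difference of 0.26, was not detected. Smarca4 (Brg1) had signals of 9.01, 9.15, 8.92 and 9.21 on mock replicates 1 to 4 and of 9.22, 9.21, 9.26 and 9.34 on Bcl11b replicates 1 to 4. The groups did not overlap, yet mock replicate 4 and Bcl11b replicate 2 had nearly the same value. The mean rose from 9.07 ± 0.13 (SD, n = 4) to 9.26 ± 0.059 (SD, n = 4), which is 1.14-fold (log2 difference 0.18, standard error 0.070, unadjusted p = 0.0371 and adjusted p = 0.435 from limma). Both calls depended on single arrays. Smarca4 passed 0.05 with mock replicate 2 or 4 left out and with none of the other 6 arrays (unadjusted p from 0.0533 to 0.0905 by limma). Smarca2 failed without mock replicate 1 or 3 or Bcl11b replicate 3 (unadjusted p from 0.0564 to 0.0637 by limma). Smarca2 also failed with median-scaled signals (-0.19, unadjusted p = 0.164), where Smarca4 passed (0.24). Smarca4 failed under 6 of the 10 other settings, which were no normalization, the offset of 16, both detection filters, limma-trend and arrayWeights, and Smarca2 failed under 5, which were median scaling, both detection filters, the block and limma-trend.

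The remaining BAF genes had larger or smaller differences without passing the threshold. Smarcd1 (BAF60A) links BAF to transcription factors. Its brightest probe (ILMN_2769786) had signals of 4.12, 7.72, 5.28 and 5.72 on mock replicates 1 to 4 and of 6.63, 6.57, 7.39 and 8.39 on Bcl11b replicates 1 to 4. It was detected on 1 mock array and on all 4 Bcl11b arrays, so most of the mock values lie in the background. The difference was 1.53 with a standard error of 0.84 (unadjusted p = 0.113 from limma), and both other Smarcd1 probes had higher means as well, each detected on at most 1 mock array. The related subunits Smarcd2 and Smarcd3, which occupy the same place in the complex, had differences of -0.090 and 0.023 with standard errors of 0.11 and 0.13. The core subunit Smarcc1 (BAF155) had higher means at both probes, 0.62 (standard error 0.37) and 0.49 (standard error 0.36). Smarcb1 and the brighter Smarce1 probe had differences of 0.20 (standard error 0.15) and -0.089 (standard error 0.059). The dimmer Smarce1 probe (ILMN_2610600), detected on all arrays, was at 0.025 (standard error 0.099).

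Of the 8 partner genes that no probe carried by symbol, 4 were found through older symbols that RefSeq gives to a single gene, and these stand outside the counts above. Smarcc2 (BAF170), the alternative to Smarcc1 in the core of BAF, is listed as 5930405J04Rik. Its log2 signals were 8.80, 9.01, 8.76 and 8.90 on mock replicates 1 to 4 and 8.61, 8.71, 8.43 and 8.49 on Bcl11b replicates 1 to 4, with no overlap. The mean fell from 8.87 ± 0.11 (SD, n = 4) to 8.56 ± 0.12 (SD, n = 4), a log2 difference of -0.31 (standard error 0.082, unadjusted p = 0.00807 and adjusted p = 0.245 from limma), and it stayed under an unadjusted 0.05 with any array left out and under the 10 other settings. Hdac4, Hdac7 and Gatad2b, detected on all arrays, had differences of 0.35 (standard error 0.23), 0.062 (standard error 0.38) and 0.25 (standard error 0.31). Chd3, Rbbp4, Gatad2a and Arid1b were not matched to a probe and were not analysed here.

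The partner genes varied more among the mock arrays than among the Bcl11b arrays. The SD was larger in the mock group for 24 of 29 genes, with a median of 0.28 against 0.16 in the Bcl11b group. Over all detected genes the SD was larger in the mock group for 62.7%, with medians of 0.29 and 0.23. Mock replicate 2 was the highest mock array for 13 of 29 partner genes (44.8%, against 22.8% of all detected genes) and the lowest for 8. Bcl11b replicate 4 was the highest Bcl11b array for 19 of 29 (65.5%, against 46.7%) and the lowest for 3. Both arrays stood high for Mta1, Smarcc1 and Smarcd1 in their group. Without mock replicate 2, 13 partner genes passed an unadjusted 0.05, 9 of them higher and 4 lower, and they shared 6 with the 7 genes above. That is 44.8% of the 29, against 24.9% of all detected genes in the same comparison, with 31.0% against 7.08% for higher and 13.8% against 17.9% for lower. The genes gained were Chd4, Mta1, Nr2f2, Ep300, Smarcc1 and Smarcd1, all higher, and Sirt2, lower, while Cbx5 was lost. For Smarcd1, mock replicate 2 was the only mock array with a detected signal, so without it the mock group lay wholly in the background. At an adjusted 0.10, Hdac1 (adjusted p = 0.0916 from limma) and Mbd3 (0.0652) then joined Nr2f1 (0.0652), and over all probes 637 instead of 252 passed. Without Bcl11b replicate 4, 7 partner genes passed an unadjusted 0.05, 3 higher and 4 lower (24.1% of the 29, against 24.3% of all detected genes). Nr2f1 alone then passed an adjusted 0.10. Deviations of mock replicate 2 and Bcl11b replicate 4 from their group means had a correlation of 0.51 over genes. Leaving out mock replicate 2 alone keeps Bcl11b replicate 4 in the comparison. The part of these arrays in the differences was not tested beyond these values.

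**Figure D3:**
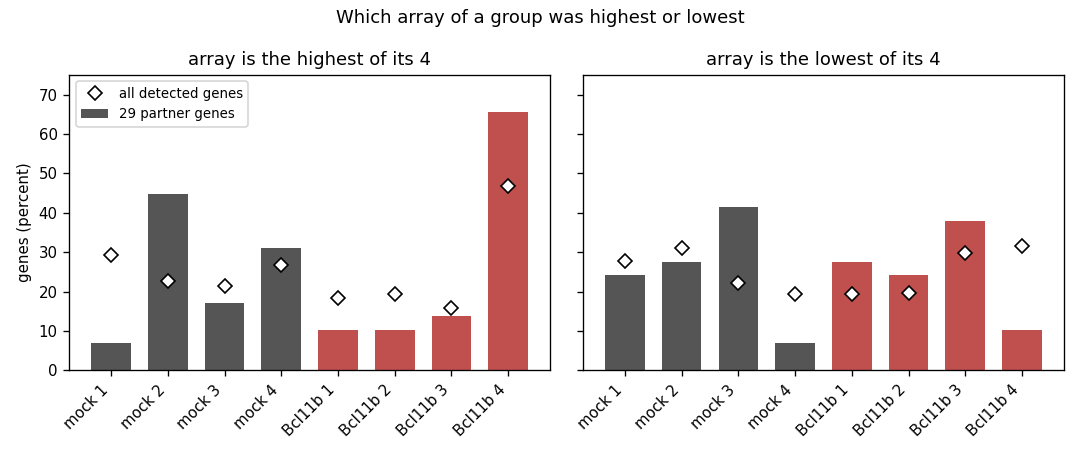
Percent of the 29 detected partner genes for which an array had the highest (left) or lowest (right) normalized signal of the 4 arrays of its group, as bars (mock in gray, Bcl11b in red), with the percent over all detected genes as open diamonds. Mock replicate 2 at 44.8% and Bcl11b replicate 4 at 65.5% stand above their diamonds at 22.8% and 46.7% on the left.

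Other subunits and relatives of these enzymes were examined as a list of 56 genes, of which 46 were on the array and 36 were detected. At an unadjusted 0.05, 6 of the 36 passed (16.7%, against 19.2% of all detected genes), 2 higher and 4 lower, and none passed an adjusted 0.10 at its representative probe. Without normalization 19 passed, all 19 lower (51.9% of all detected genes were lower there), and with median-scaled signals 3, of which 1 was higher. Zfpm1 (FOG-1), a zinc finger cofactor that binds NuRD, had the lowest p-value of the 6. It had log2 signals of 10.26, 10.00, 10.86 and 10.65 on mock replicates 1 to 4 and of 9.48, 9.61, 9.45 and 9.70 on Bcl11b replicates 1 to 4, with no overlap (log2 difference -0.88, standard error 0.20, adjusted p = 0.181 from limma). Hdac10, a class II enzyme, was 1.71-fold lower with groups that did not overlap (log2 difference -0.78, standard error 0.22, adjusted p = 0.275 from limma). Ehmt2 (G9a), which dimethylates histone H3 at lysine 9, was lower at its 2 detected probes, and its remaining probe, with a mean difference of 0.36, was not detected. The brighter had a difference of -0.30 (standard error 0.10, limma adjusted p = 0.373), and the other (ILMN_3147724) fell from 10.99 ± 0.090 (SD, n = 4) to 10.57 ± 0.075 (SD, n = 4) and passed the adjusted threshold (log2 difference -0.42, standard error 0.057, adjusted p = 0.0558 from limma). That call was lost without mock replicate 1 or 3 or Bcl11b replicate 1, 2 or 3 (adjusted p from 0.115 to 0.183 by limma). It was also lost under 7 other settings, which were no normalization, median scaling, the offset of 16, both detection filters, the replicate block and limma-trend (adjusted p from 0.1001 to 0.255 by limma), and kept with neqc and arrayWeights. Sirt7, a nucleolar sirtuin, was lower (-0.32, standard error 0.12, unadjusted p = 0.0335 from limma). Kat5 (Tip60), an acetyltransferase listed as Htatip, and Sirt6, a chromatin-bound sirtuin, were higher at their brightest probes. The differences were 0.34 (standard error 0.12) and 0.39 (standard error 0.16), with unadjusted p-values of 0.0249 and 0.0482 by limma, and both were at -0.36 without normalization. The dimmer Sirt6 probes, each not detected on some arrays, differed in sign, at 0.50 (ILMN_2684909, standard error 0.41) and -0.47 (ILMN_2671176, standard error 0.43). The brightest Sirt6 probe was detected on 3 of 4 mock arrays. Sirt6 stayed under 0.05 only without mock replicate 1 or 4, and Sirt7 only without mock replicate 2 or Bcl11b replicate 1. Kat5 failed without Bcl11b replicate 2 or 4, and the brighter Ehmt2 probe without mock replicate 1 or 4 or Bcl11b replicate 1 or 3, with unadjusted p-values of up to 0.111 by limma over these genes, whereas Zfpm1, Hdac10 and the other Ehmt2 probe passed with any array left out. Without mock replicate 2, Hdac10 (adjusted p = 0.0432 from limma), Sirt7 (0.0597) and Zfpm1 (0.0652) passed an adjusted 0.10.

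The direction of the genes that were higher rests on normalization. Without normalization between arrays the median log2 difference of all 25697 probes was -0.49, and Hdac1, Mbd3, Cbx5 and Smarca4 had values of -0.43, -0.098, -0.15 and -0.51. Relative to that shift they stood at 0.062, 0.39, 0.35 and -0.019. Over all detected genes the median without normalization was lower, at -0.71, and 4.8% of these genes had a higher mean. Hdac1, Mbd3, Cbx5 and Smarca4 all lay above that median of detected genes. Nr2f1, Suv39h1 and Smarca2 were lower without normalization as well, by -0.67, -0.51 and -0.45 relative to the shift of all probes. Their values of -1.16, -1.01 and -0.94 also lay below the median of detected genes. In that setting 12 partner genes passed an unadjusted 0.05, all 12 lower, and none passed an adjusted 0.10 by limma.

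**Figure D4:**
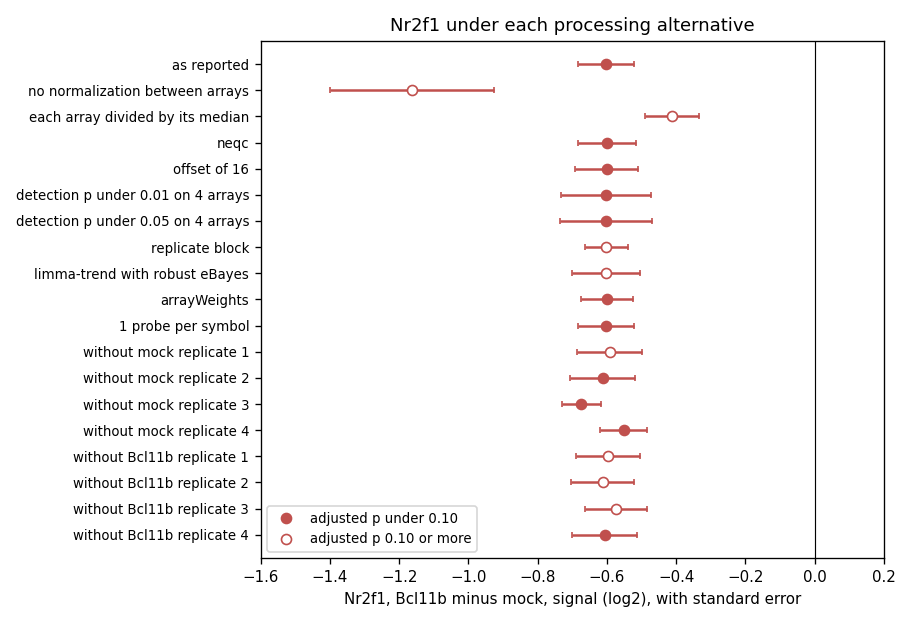
Log2 difference of Nr2f1, Bcl11b minus mock, with 1 standard error from limma, as reported and under 18 alternatives, with filled points where the adjusted p-value was under 0.10. All 19 points lie below 0, between -1.16 without normalization and -0.41 with median-scaled signals, and 8 of the 18 alternatives are open.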

How the data were processed

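The sample titles gave the groups and replicate numbers. The authors deposited 1 average signal intensity per probe and array, background-subtracted in GenomeStudio and not normalized between arrays, with a detection p-value per probe. As in the study's methods, intensities were quantile-normalized and tested with limma (version 3.58.1, R 4.3.3; lmFit and eBayes on the log2 scale) over 25697 probes with no covariate and Benjamini-Hochberg adjustment. A floor of 1 before the logarithm was added here, as 30.6% to 31.6% of an array's signals lay at or below 0, and the study's fold limit was not applied. The procedure was tested on simulated data with known differences. No signal was identical between any 2 arrays. The number of arrays limits the precision, and the study describes 4 different sets of transfected cells. The genes, complexes and lists were chosen with earlier results of these data known. Values on every array are given for detected probes of partner genes under an unadjusted 0.05 or with groups that do not overlap, for Nr2f1 and Nr2f2, and for the brightest probe of a complex with no such gene; other genes of the complexes are named where a detected probe was under 0.05. Mta1, Smarcd1, Smarcc2 and Zfpm1 were given in the same detail after their values were seen. As alternatives, signals were left unnormalized, scaled to array medians, normalized by neqc or given an offset of 16. Probes were limited to those detected at 0.01 or 0.05 on at least 4 arrays, or to 1 per symbol. The fit was run with arrayWeights, with robust limma-trend, with replicate number as blocking factor, and without each array in turn.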

Additional observations from a re-analysis of the deposited data

Results flagged for a closer look

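Over 62 groups of 4 arrays, 2 for each of 29 detected partner genes and 2 each for median signal and number of detected probes, 4 held an array far from the other 3, where chance gives about 1 in 20. For Hdac3, Bcl11b replicate 4 had a log2 signal of 11.69 and the other Bcl11b arrays lay from 11.35 to 11.39. For Ep300, Bcl11b replicate 4 was at 11.47 and the others were at 11.20. For Sirt2, mock replicate 2 was at 9.37 and the others lay from 10.00 to 10.09. For Mbd3, mock replicate 2 was at 10.93 and the others lay from 10.33 to 10.37. No array stood apart in median signal or in the number of detected probes.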

How the results depend on the processing

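Counts moved with the setting, and the cause was not tested. The 1 partner gene past an adjusted 0.10 became 0 without normalization, with division by the array median, with the replicate block and with limma-trend, and 0 to 3 with an array left out. The 7 partner genes past an unadjusted 0.05 became 12 without normalization, 4 and 3 when probes had to be detected at 0.01 and 0.05 on 4 arrays, and 4 to 13 with an array left out. The 6 other genes of the complexes became 19 without normalization, 3 with division by the median, 3 with detection at 0.05, 10 with arrayWeights, and 3 to 7 with an array left out. The 252 probes became 57 without normalization, 146 with division by the median, 413 with neqc, 45 with the block, 45 with limma-trend, 642 with arrayWeights, and 87 to 637 with an array left out.

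Nr2f1 lost the adjusted call without normalization (-1.16, adjusted p = 0.125 from limma), with division by the median (-0.41), with the block (-0.60, adjusted p = 0.183) and with limma-trend (-0.60, adjusted p = 0.155), and its difference ran from -0.67 to -0.55 with an array left out. Same-numbered arrays of the groups deviated from their group means with correlations over genes of 0.53, -0.52, 0.092 and 0.60. Those of arrays with different numbers ran from -0.68 to 0.51. These values do not decide whether the numbers pair the arrays. With the replicate block 5 of the 7 partner genes stayed under 0.05.

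Without normalization the direction turned for Hdac1 (-0.43), Hdac6 (-0.48), Sirt1 (-0.42), Chd4 (-0.49), Mbd3 (-0.098), Cbx5 (-0.15), Nr2f2 (-0.43), Sp1 (-0.34), Ep300 (-0.34), Smarca4 (-0.51), Smarcb1 (-0.42), Smarcc1 (-0.072), Smarcd3 (-0.67), Sirt6 (-0.36), Kat5 (-0.36), Hdac4 (-0.36), Hdac7 (-0.60) and Gatad2b (-0.49). In that setting 4.8% of all detected genes had a higher mean, against 44.3% as reported. With division by the median the direction turned for Hdac2 (0.22), Sirt2 (0.024), Mta2 (0.15), Rbbp7 (0.040), Smarcd2 (0.011) and Smarce1 (0.048), and with arrayWeights for Hdac7 (-0.091). With an array left out, Sirt2 ran from -0.20 to 0.039, Mta2 from -0.16 to 0.11, Rbbp7 from -0.28 to 0.11, Smarcd3 from -0.079 to 0.090 and Hdac7 from -0.17 to 0.36.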
